A study of Mus musculus with 73 samples.

Results

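The 10 genes described here encode bone morphogenetic protein (BMP) ligands and the secreted proteins that bind them. The 6 ligands are *Bmp2*, *Bmp3*, *Bmp4*, *Bmp5*, *Bmp7* and *Bmp8a*, and the 4 antagonists are *Grem1*, *Chrdl1*, *Nog* and *Fst*. The list is fixed by gene name, with no threshold on a value, although earlier results of these data were known when it was drawn up. The tables held 20882 genes for dissected tissue, 21058 for single cells and 17399 for isolated epithelium. All 10 had a row in the first and the third table. *Nog* was not analysed in single cells, where 9 members had a row.

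The study mapped the stroma of the mouse jejunum, the middle part of the small intestine, along the axis from crypt to villus tip. Laser capture microdissection (LCM) gave 29 stromal sections from C57BL/6 mice 3 months old: 6 of the crypt from 3 mice, 8 of the villus bottom, 7 of the villus center and 8 of the villus tip, each from 5 mice. Single cells of C57BL/6 mice, also labelled as 3 months old, were sorted into plates, mainly for the surface marker PDGFRa, and 3449 wells of 35 plates and 8 mice held 400 to 8000 unique molecular identifiers (UMIs, tags that count each captured mRNA once). The study's methods give a younger age than the labels for the C57BL/6 mice. The third table holds jejunal epithelium of *Lgr5*(GFP-ires-DTR/+) mice 4 months old, 48 h after diphtheria toxin (DT, 4 mice) or mock injection (4 mice). Both of these groups carried the knock-in, so the toxin receptor was present in any cell that expresses *Lgr5*, crypt stem cells as well as telocytes of the villus tip stroma, and an effect of losing 1 of these cell types cannot be told apart from an effect of losing the other.

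BMPs are secreted dimers of the TGF-beta superfamily. They join type I and type II serine/threonine kinase receptors on the receiving cell, which phosphorylate Smad1, Smad5 and Smad9, and with Smad4 these enter the nucleus and induce targets such as the Id genes. Antagonists trap the ligands outside the cell. In the intestine, BMP signaling is known to favour differentiation on the villus, and antagonists made by stromal cells around the crypt base are known to keep it low near the stem cells.

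Before the members' values, the quality of the samples is given once. The LCM sections detected 5481 to 17306 genes, and the genes removed because enterocytes express them highly took 4.97% to 44.7% of a section's signal. Before that removal the 6 epithelial marker genes summed to 21.1 to 3343 TPM per section, and the removal takes all 6 out by construction. Genes that enterocytes express at lower levels stay in, so epithelial RNA in a section can add to a member's level, and its part was not tested. The 6 mesenchymal markers summed to a median of 427 ppm (a normalised TPM, defined with the zones) in the crypt, 155 ppm in the villus bottom, 805 ppm in the villus center and 85.9 ppm in the villus tip. A villus center section of mouse 1 held 7545 TPM of muscle markers and 2147 TPM of mesenchymal markers. The other sections held at most 957 and 622 TPM. The section with 5481 genes came from the villus tip of mouse 2. The part of these sections in the members' values was not tested. Among the wells, 328 were mesenchymal, with at least 2 of *Pdgfra*, *Dcn*, *Lum*, *Col1a1*, *Col1a2* and *Col3a1* detected, 1359 were epithelial, with *Epcam* detected, 7 met both criteria and 1755 neither. Many epithelial wells came from gates named for PDGFRa, 417 from PdgfraSinglets and 310 from PdgfraSingletsPop3, and 64 came from CD45Singlets, a gate named for an immune marker. The same 380 well barcodes recurred on several plates, so a well is identified by its plate and barcode together. The epithelial samples held 748458 to 4210158 UMIs. *Lgr5* itself lay between 11.2 and 69.5 CPM (UMI counts per 1000000 UMIs) in mock samples and between 6.37 and 47.2 CPM in DT samples, which overlapped (exact permutation test, two-sided, p = 0.486).

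All members are protein-coding genes of the GRCm38 assembly. *Bmp4* lies on the minus strand of chromosome 14 (46383520 to 46390669), *Bmp5* on the plus strand of chromosome 9 (75775364 to 75900310), *Bmp8a* on the minus strand of chromosome 4 (123312645 to 123343252) and *Grem1* on the minus strand of chromosome 2 (113746164 to 113758646). The same chromosome carries *Bmp2* (plus strand, 133552159 to 133562885) and *Bmp7* (minus strand, 172868012 to 172940321). *Bmp3* lies on chromosome 5 (98854415 to 98884396), *Chrdl1* on chromosome X (143285674 to 143394262), *Nog* on chromosome 11 (89300638 to 89302332) and *Fst* on chromosome 13 (114452290 to 114458951).

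Of the 10 members, 4 matched an entry in the promoter table used here, and the 250 bases before their annotated start are printed. *Bmp5* was found mainly in myofibroblast-like wells, *Grem1* in crypt telocyte-like wells, *Bmp4* in both, and *Bmp8a* in epithelial wells. *Bmp2*, *Bmp3*, *Bmp7*, *Chrdl1*, *Nog* and *Fst* were not analysed for sequence. The 4 are RefSeq promoter sequences on GRCm38.p6, written 5′ to 3′ on the strand of the gene, at chr14:46390670-46390919 (*Bmp4*), chr9:75775115-75775364 (*Bmp5*), chr4:123343253-123343502 (*Bmp8a*) and chr2:113758649-113758898 (*Grem1*). Capitals mark the single match to a searched motif.
Bmp4: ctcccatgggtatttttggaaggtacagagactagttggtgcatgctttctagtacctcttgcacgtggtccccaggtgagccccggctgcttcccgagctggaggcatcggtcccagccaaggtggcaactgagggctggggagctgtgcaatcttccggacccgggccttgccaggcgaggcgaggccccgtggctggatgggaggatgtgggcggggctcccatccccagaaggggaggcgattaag
Bmp5: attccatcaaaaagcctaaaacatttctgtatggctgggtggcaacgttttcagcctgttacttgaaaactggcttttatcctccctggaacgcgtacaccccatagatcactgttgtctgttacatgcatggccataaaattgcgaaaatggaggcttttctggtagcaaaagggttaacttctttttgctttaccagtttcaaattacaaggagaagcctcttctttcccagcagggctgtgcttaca
Bmp8a: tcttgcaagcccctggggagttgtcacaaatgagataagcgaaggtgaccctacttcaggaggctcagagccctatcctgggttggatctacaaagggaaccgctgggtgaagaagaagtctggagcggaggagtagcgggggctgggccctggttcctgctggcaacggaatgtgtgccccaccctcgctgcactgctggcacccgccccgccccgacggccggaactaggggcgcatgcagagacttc
Grem1: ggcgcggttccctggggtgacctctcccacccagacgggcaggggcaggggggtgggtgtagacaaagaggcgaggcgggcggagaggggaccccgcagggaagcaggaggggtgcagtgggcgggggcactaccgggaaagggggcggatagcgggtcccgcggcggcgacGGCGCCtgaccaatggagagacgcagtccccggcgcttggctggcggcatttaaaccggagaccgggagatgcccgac

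The *Bmp5* sequence had a G+C content of 42.8%, against 62% for *Bmp8a*, 63.2% for *Bmp4* and 72% for *Grem1*. Over 32851 promoters of the same length the median was 52.4%, with a range of 38.80% to 69.2% from the 10th to the 90th percentile, so *Grem1* lay above that range and the others within it. On both strands, 5 motifs were searched: the GLI motif GACCACCCA, the FOX motif GTAAACA, the GC-rich SMAD motif GGCGCC, the HNF4 motif CAAAGTCCA and the TATA box, spelled TATAAA. The only match in the 4 sequences was GGCGCC in *Grem1*, from base -78 to base -73 counted from the start, and 9.59% of all promoters hold these letters. The shares of promoters with the other motifs were 0.225%, 3.17%, 0.384% and 12.4% in the order GLI, FOX, HNF4 and TATA. Thus no searched motif was shared between members.

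The first question was where along the axis the stroma expressed each ligand and antagonist. Deposited TPM values (transcripts per 1000000, scaled for transcript length) had the enterocyte genes removed and were divided by the sum of the genes below 1% of a sample, giving parts per 1000000 (ppm), and sections of a mouse were averaged per zone. *Bmp4* and *Bmp2* had the highest levels among the ligands, up to 361 ppm, and the antagonists stayed lower, up to 63.0 ppm for *Fst*. Every member overlapped between every pair of zones compared, and no member passed the test in any of the 3 contrasts.

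*Bmp4*, a ligand known to be made by the stroma of the villus, measured 3.59, 28.3 and 40.8 ppm in the crypts of mice 1, 2 and 3. In the villus bottom it was 4.71, 62.5, 42.4, 85.0 and 24.8 ppm in mice 1 to 5, and in the villus center 66.6, 88.8, 18.9, 0.758 and 34.2 ppm. At the villus tip it was 0.849, 3.35, 82.0, 361 and 19.7 ppm. The tip thus held both low values, in mice 1 and 2, and the highest value of the gene, in mouse 4, and its mean of 93.4 ± 153 ppm (SD, n = 5) lay far above its median of 19.7 ppm. The bottom was above the crypt in 3 of 3 mice with both zones. On the log2(ppm + 1) scale the difference of tip minus crypt was 0.09 ± 1.53 (SE), that of bottom minus crypt 0.65 ± 1.53 and that of tip minus bottom -0.56 ± 1.28 (limma, adjusted p = 0.9997, 0.9999 and 0.925). The direction of tip minus crypt turned when single mice were left out, from -0.78 to 0.88.

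*Bmp2*, a ligand closely related to *Bmp4*, measured 5.06, 137 and 25.6 ppm in the crypt. It was 12.5, 20.01, 2.70, 0 and 3.62 ppm in the villus bottom and 3.35, 7.11, 0, 0 and 1.91 ppm in the villus center. At the tip it was 3.79, 84.2, 0.299, 14.7 and 6.17 ppm. Mouse 2 held the highest value in every zone. The center was below the tip in 5 of 5 mice, and the tip was below the crypt in 3 of 3. The fitted difference of tip minus crypt was -1.27 ± 1.02 (SE) and that of bottom minus crypt -1.99 ± 1.02 (limma, adjusted p = 0.9997 and 0.9999). Without mouse 3 they were -0.030 and -1.31, and without mouse 1 -2.06 and -3.34.

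*Bmp5* and *Bmp7*, ligands of the same subfamily, were lower. *Bmp5* measured 0.974, 18.2 and 16.8 ppm in the crypt, against 1.76, 1.86, 0.924, 0.865 and 5.58 ppm in the villus bottom. It reached 24.8 ppm in the center and 17.3 ppm at the tip, both in mouse 5. The tip was below the crypt in 3 of 3 mice, with a fitted difference of -1.72 ± 1.07 (SE), and bottom minus crypt was -2.04 ± 1.07 (limma, adjusted p = 0.9997 and 0.9999). Without mouse 1 the 2 differences were -2.76 and -3.28, without mouse 2 -0.91 and -1.69, and without mouse 3 -1.08 and -1.32. *Bmp7* lay between 1.33 and 6.34 ppm in the crypt and between 0 and 49.5 ppm in the villus, with its highest villus values in mice 4 and 5. *Bmp8a* ranged from 0 to 21.8 ppm in the crypt and from 0 to 20.5 ppm in the villus, and was at 0 in 1 mouse of every zone. *Bmp3*, which unlike the other ligands is known to oppose BMP signaling, stayed between 0.767 and 9.52 ppm in all zones and missed the expression filter of a zone mean above 5 ppm.

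Among the antagonists, *Grem1* is known as the product of stromal cells around the crypt. It measured 6.41, 2.37 and 18.4 ppm in the crypt, and 3.65, 0.047, 0, 0.660 and 2.17 ppm in the villus bottom. The center gave 9.02, 0.050, 2.51, 0.514 and 0 ppm, and the tip 1.01, 0, 9.10, 1.97 and 5.68 ppm. Both bottom and tip were below the crypt of the same animal in 3 of 3 mice. The fitted difference of bottom minus crypt was -1.998 ± 0.91 (SE), with limma's adjusted p = 0.9999, and that of tip minus crypt -1.20 ± 0.91 (adjusted p = 0.9997). *Grem1* passed the expression filter through the crypt alone, where its mean was 9.05 ppm against 1.31 to 3.55 ppm in the villus zones, so the filter favoured a higher crypt, and without mouse 3 it did not pass.

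*Fst*, follistatin, binds activins and several BMPs. It measured 0.676, 17.5, 19.2, 2.87 and 10.1 ppm in the villus bottom against 0.262, 0, 1.27, 1.43 and 3.26 ppm at the tip, and was lower at the tip in 5 of 5 mice. The difference of tip minus bottom was -1.96 ± 0.90 (SE, limma unadjusted p = 0.0431, adjusted p = 0.626). Its crypt values of 2.23, 6.92 and 0 ppm lay within the range of the villus. *Nog*, noggin, was at 0 in 2 of 3 mice in the crypt and 4 of 5 in the villus center, and reached 12.8 ppm in the villus bottom. *Chrdl1* measured 1.53, 1.04 and 3.78 ppm in the crypt and 0 to 3.77 ppm elsewhere, and it was below the crypt in 3 of 3 mice both at the bottom and at the tip. *Chrdl1* also missed the expression filter.

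Over all 13535 genes that passed the filter, limma called 0 (0%) in each of the 3 contrasts at an adjusted p under 0.05, so the absence of called members is the rule in this table. At an unadjusted p under 0.05 the shares were 3.3% of genes for tip against crypt, 2.73% for bottom against crypt and 7.81% for tip against bottom. The 8 members that passed the filter include *Grem1* and *Nog*, which did so through 1 zone each, so no count or median over them is read. The precision was limited by the sections: in 11 pairs of sections from the same mouse and zone, the median absolute log2 difference was 2.54 for *Bmp2*, 2.41 for *Bmp8a*, 1.81 for *Bmp4* and 1.72 for *Fst*, against 0.37 for *Grem1*. In such tissue, fewer cells of a type and less RNA per cell cannot be told apart. The 6 mesenchymal markers moved with the zones, and their part in the members' differences was not tested.

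**Figure D1:**
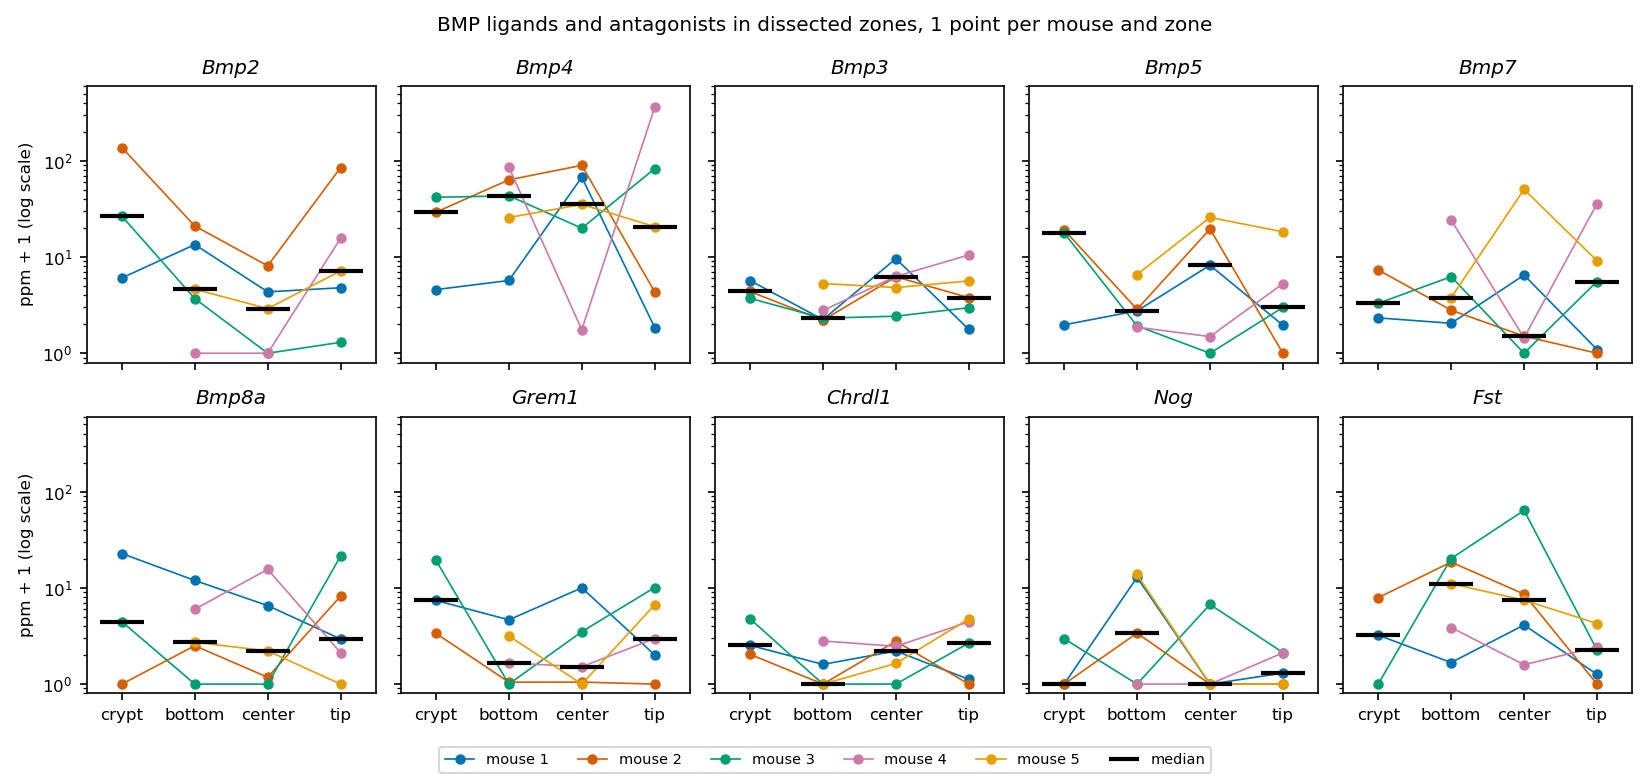
Levels of the 10 members in the dissected stroma, as ppm + 1 on a log axis, for the zones crypt, villus bottom, villus center and villus tip; a colored line joins the zones of a mouse and a black bar is the median of the zone. The *Bmp4* points at the villus tip run from 0.849 to 361 ppm, and the points of all zones overlap for every member.

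The pathway around the members was read from 5 lists with 55 genes: other ligands of the superfamily, other antagonists, receptors, Smads with their regulators, and target genes. In the LCM data 30 of them were tested and 0 were called. Between tip and crypt, 11 had a log2 difference above 0 and 19 below 0, with a median of -0.39 against -0.03 over all genes, of which 51.4% were below 0, and 2 passed the unadjusted mark: the type I receptor *Acvr1* (-2.50, p = 0.00483) and *Foxf1* (-3.75, p = 0.00509), a stromal transcription factor (limma, adjusted p = 0.9997 for both). The target *Id3* was 2.41 above the crypt at the tip and 2.53 above it at the bottom (limma, unadjusted p = 0.0745 and 0.0624). For tip minus crypt *Id1* was at -0.28, *Id2* at -0.91 and *Id4* at 0.31. Of the 8 target genes tested, 4 were above 0 and 4 below 0 for tip minus crypt, with a median of 0.02. For bottom minus crypt 6 were above 0 and 2 below 0, with a median of 0.40. Of the 8 tested genes of the Smad list, which include the regulators *Smurf1* and *Smurf2*, 5 had a difference of tip minus crypt below 0 and 3 above 0. Their median was -0.19.

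The single cells were used to ask which cells made each member. Stromal wells carried 6 members almost alone: *Bmp4*, *Grem1*, *Fst* and *Chrdl1* had no UMI in 1359 epithelial wells, and *Bmp5* and *Bmp7* had 1 and 4. *Bmp8a* had the opposite pattern, with UMIs in epithelial and none in mesenchymal wells, and *Bmp2* was found in both. Levels are given as UMIs per 100000 UMIs of a class, with exact Poisson intervals at the 95% level that cover counting error only. Of 390395 UMIs in mesenchymal wells and 3207666 in epithelial wells, the members made up a small part, and the medians per well were 1018.5 and 1787 UMIs.

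*Grem1* had 113 UMIs in 47 of the 328 mesenchymal wells (14.3% of wells), a level of 28.9 (23.9 to 34.8), and *Bmp4* had 79 UMIs in 55 wells (16.8%), a level of 20.2 (16.0 to 25.2). Against the floor of 3 counts that 0 UMIs allow over all epithelial wells, *Grem1* was at least 309-fold and *Bmp4* at least 216-fold higher in mesenchymal wells. Both were also at 0 in 158 wells with immune markers, where 0 allows a share of wells with a UMI of up to 1.90%, while in epithelial wells it allows up to 0.221%. This limits wells with a UMI and not wells that express the gene. By mouse, *Bmp4* had levels of 42.8, 0, 35.0 and 11.2 in the mesenchymal wells of mice A, B, E and G, and *Grem1* had 17.7, 0, 46.7 and 33.7. Mouse B had 6 mesenchymal wells and 4574 UMIs, too few to show either gene at the level of the others, and mouse E had 13 wells. In the 8 mice with epithelial wells both genes were at 0. The mean difference between classes was 22.3 for *Bmp4* and 24.5 for *Grem1* (exact permutation test over 4 and 8 sums per mouse, two-sided, p = 0.0364 for both). That test treats the sums as independent, although the 4 mice with mesenchymal sums also gave 4 of the 8 epithelial sums. Paired within these 4 mice, the exact permutation test gave p = 0.25 for both genes, where the smallest p that 4 pairs allow is 0.125, so neither difference passes with the pairing. The unpaired exact permutation test gave p = 0.133 for either gene when mouse A, E or G was left out. It gave p = 0.0556 when mouse sums needed at least 20 wells. Only mice A and G then kept mesenchymal sums, and no smaller p was possible. For *Grem1* it was p = 0.182 in the exact test without the gates for doublets, with a mean difference of 20.1.

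The other mesenchymal members were sparser. *Bmp5* had 36 UMIs in 21 mesenchymal wells, a level of 9.22 against 0.0312 in epithelial wells, a ratio of 296 with a counting interval from 49.8 to 12004. *Bmp7* had 33 UMIs in 18 wells, and its ratio was 67.8 (24.1 to 263). *Bmp3* had 12 UMIs in 11 wells against 6 UMIs in 4 epithelial wells, a ratio of 16.4 (5.71 to 53.4). That ratio holds for these wells. In isolated mock epithelium *Bmp3* averaged 15.8 CPM, beside 15.2 CPM for *Bmp2*, whereas their levels in epithelial wells were 0.187 and 1.96 per 100000. The reason for this difference was not tested. *Fst* had 20 UMIs in 12 wells and was at least 54.8-fold higher. *Chrdl1* had 7 UMIs in 3 wells and was at least 19.2-fold higher. Most of the UMIs of the first 3 came from 1 animal: mouse A held 33 of 36 for *Bmp5*, 27 of 33 for *Bmp7* and 10 of 12 for *Bmp3*, with 111 of the 328 wells. Mouse G, with 197 wells, had levels of 1.12, 2.25 and 0.748 for these genes, against 30.7, 25.1 and 9.30 in mouse A. Without the gates for doublets the 3 levels were 3.53, 5.14 and 1.61. Over mice none of these 5 members passed the exact permutation test (p = 0.182 for *Bmp5*, *Bmp7* and *Fst*, 0.214 for *Bmp3*, 0.667 for *Chrdl1*). All 7 *Chrdl1* UMIs came from mouse G.

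*Bmp2* had 14 UMIs in 11 mesenchymal wells (3.35%) and 63 UMIs in 47 epithelial wells (3.46%). The ratio of its levels, 3.59 to 1.96, was 1.83 with a counting interval of 0.945 to 3.29, and the difference over mice did not pass the exact permutation test (p = 0.315). *Bmp8a* had 59 UMIs in 38 epithelial wells and 0 in mesenchymal wells, so it was at least 2.39-fold higher in epithelium. Its level was 1.72, 1.099, 0, 0, 1.63, 0.186, 4.09 and 0.495 in the epithelial wells of mice A to H. The class difference of -1.15 was at p = 0.0606 in the exact permutation test and at p = 0.0303 when mouse C or D, which had no *Bmp8a* UMI, was left out. Paired within the 4 mice with both classes it was -2.13 at p = 0.125 in the exact permutation test, the smallest p that 4 pairs allow.

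In the fit across genes with edgeR on sums per mouse, 3018 genes passed the count filter, of which 704 (23.3%) were called higher and 1117 (37%) lower in mesenchymal wells, and no member passed the filter. In the same fit without a filter on 18463 genes, 2887 (15.6%) were called higher and 2000 (10.8%) lower. There, 7 of the 9 members were called higher in mesenchymal wells, which are *Bmp3*, *Bmp4*, *Bmp5*, *Bmp7*, *Grem1*, *Chrdl1* and *Fst*, with adjusted p from 1.44e-22 for *Grem1* to 0.000941 for *Bmp3*. *Bmp8a* was called lower (adjusted p = 0.00964), and *Bmp2* was not called (log2 difference 0.71 ± 0.69 SE, adjusted p = 0.497). That unfiltered fit holds many genes with a few UMIs, and it treats sums of the same mouse as independent. Of the 9 members the unpaired exact test over mice passed *Bmp4* and *Grem1* alone. The paired exact test could pass none, since 0.125 is the smallest p that 4 pairs allow.

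**Figure D2:**
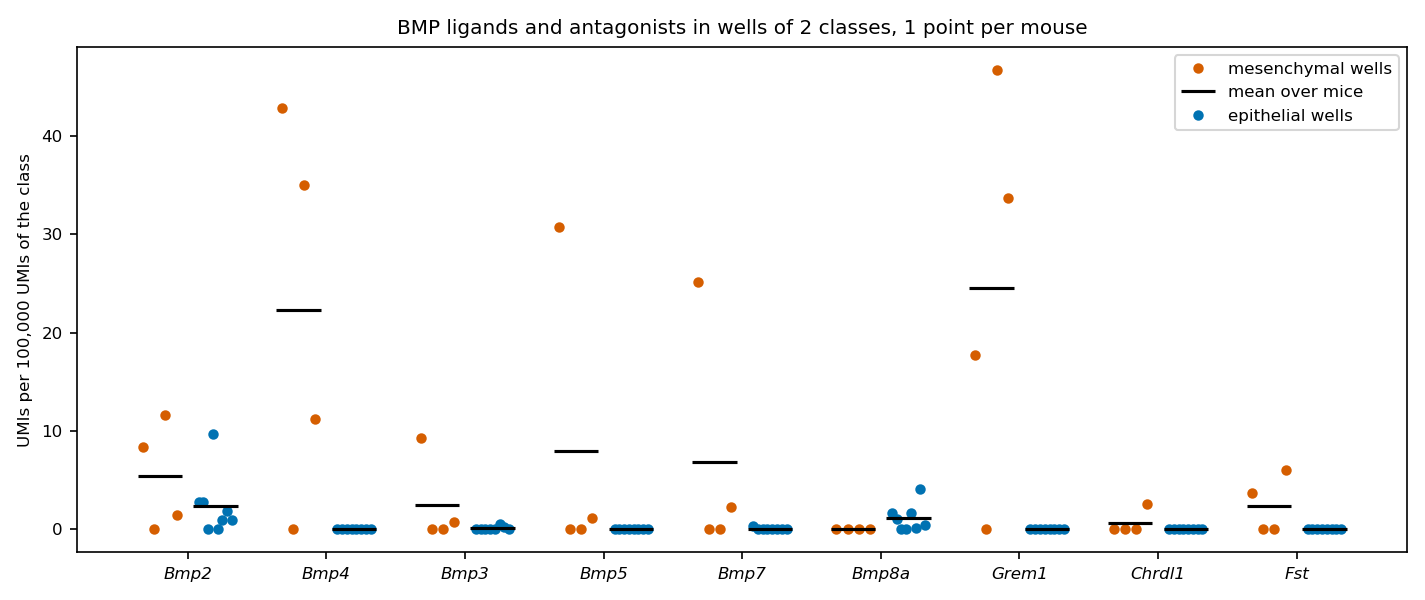
Levels of 9 members in UMIs per 100000 UMIs of a class, with a point for each mouse with at least 5 wells of the class (4 mice for mesenchymal wells in orange, 8 for epithelial wells in blue) and a bar for the mean over mice. *Bmp4* and *Grem1* stand at 0 in the epithelial wells of 8 of 8 mice, and *Bmp5* and *Bmp7* rise above 3 in mouse A alone.

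Of the 55 pathway genes, 9 passed the count filter in this comparison, and 4 were called higher and 3 lower in mesenchymal wells. The antagonists *Fstl1* (log2 difference 9.42), *Nbl1* (6.15) and *Twsg1* (5.29), which bind activins or BMPs outside the cell, were higher (edgeR, adjusted p = 6.22e-16, 1.14e-13 and 6.24e-12). They are the 3 of 14 listed antagonists that passed the filter. That filter can pass a gene through the class where it is high, so their shared direction is not read as a result for the list. The signal transducer *Smad4* (-1.80, adjusted p = 0.0115), the inhibitory *Smad7* (-2.36, adjusted p = 0.00615) and the target *Id1* (-3.49, adjusted p = 0.000253) were lower. *Smad5* was higher (1.69, adjusted p = 0.0159), a call that was lost with the scaling of DESeq2 within edgeR (adjusted p = 0.0559) and with DESeq2 itself (0.144). The median of all log2 differences was -0.53, and -0.87 with that scaling, so a change is read relative to it. *Id3* and *Gata6* were at -0.06 and -1.05 and did not pass. Of the receptors, none passed the count filter. *Gdf10*, a ligand related to *Bmp3*, had 142 UMIs in 66 mesenchymal wells and 0 in epithelial wells, more than any member.

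The 328 mesenchymal wells were then grouped by their expression, with the members and the 5 pathway lists left out of the grouping. It gave 5 groups: crypt telocyte-like (105 wells, led by *C4b*, *Sfrp1* and *Mgp*), myofibroblast-like (58 wells, led by *Ednrb*, *Acta2* and *Tagln*), mesothelial fibroblast-like (26 wells, *Fibin* and *Thbs2*), villus tip telocyte-like (VTT-like, 54 wells, *Tppp3* and *Mfap5*), and 85 wells led by *Emilin2* and *Ifnar2* that were left unnamed. The groups come from the same cells, so the values are a description without a test. Names follow marker genes and not a measured position. Summed over 8 VTT marker genes, VTT-like wells stood at 872 and the unnamed wells at 615 UMIs per 100000. In the dissected zones 6 of these genes were kept, and their sums had medians of 134, 99.3, 129 and 123 ppm from crypt to tip. The name therefore does not place VTT-like wells at the tip. Animals were spread unevenly. Mouse A gave 53 of the 58 myofibroblast-like wells, and mouse G gave 49 of the 54 VTT-like and 63 of the 105 crypt telocyte-like wells. The levels of the myofibroblast-like group thus rest mainly on mouse A. Within mouse A, these 53 wells held 32 *Bmp5*, 27 *Bmp7* and 10 *Bmp3* UMIs. Its 30 crypt telocyte-like, 16 unnamed and 5 VTT-like wells held 0 of these genes, and its 7 mesothelial fibroblast-like wells held 1 *Bmp5* UMI. In mouse G, 5 myofibroblast-like wells held 3, 2 and 2 UMIs in the same order, and 49 VTT-like wells held 4 *Bmp7* UMIs.

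*Grem1* and the ligands *Bmp3*, *Bmp5* and *Bmp7* lay in different groups. Of the 113 *Grem1* UMIs, 104 (92.0%) were in crypt telocyte-like wells, a level of 80.5 (65.8 to 97.6) per 100000, and 44 of the 105 wells (41.9%) had at least 1. The other 9 were in the unnamed group, and myofibroblast-like, mesothelial fibroblast-like and VTT-like wells had 0. Both animals with many wells showed it: crypt telocyte-like wells had 19 *Grem1* UMIs in 10 of 30 wells of mouse A and 82 in 33 of 63 wells of mouse G. *Bmp5* had 35 of its 36 UMIs, *Bmp7* 29 of 33 and *Bmp3* 12 of 12 in myofibroblast-like wells, at levels of 65.0 (45.2 to 90.3), 53.8 (36.0 to 77.3) and 22.3 (11.5 to 38.91). Crypt telocyte-like wells had 0 UMIs of these 3 ligands.

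*Bmp4* was found in all 5 groups. Its level was 68.7 (48.4 to 94.7) in myofibroblast-like wells with 37 UMIs, 24.8 (16.9 to 35.0) in crypt telocyte-like wells with 32, and 9.44 and 7.37 in the mesothelial fibroblast-like and unnamed groups with 2 and 6. VTT-like wells had 2 *Bmp4* UMIs in 54 wells, a level of 1.91 (0.231 to 6.90), at a median of 1843 UMIs per well. *Bmp2* had 8 UMIs in crypt telocyte-like and 6 in myofibroblast-like wells and 0 elsewhere. VTT-like wells held 7 of the 20 *Fst* UMIs, 4 of the 7 *Chrdl1* UMIs, in 1 well, and 4 *Bmp7* UMIs. With the gates for doublets left out, 26 myofibroblast-like wells had *Bmp4* and *Bmp5* at 62.3 and 49.0, and 78 crypt telocyte-like wells had *Grem1* at 84.1. A finer grouping kept 57 myofibroblast-like wells and split the crypt telocyte-like wells into groups without a name.

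**Figure D3:**
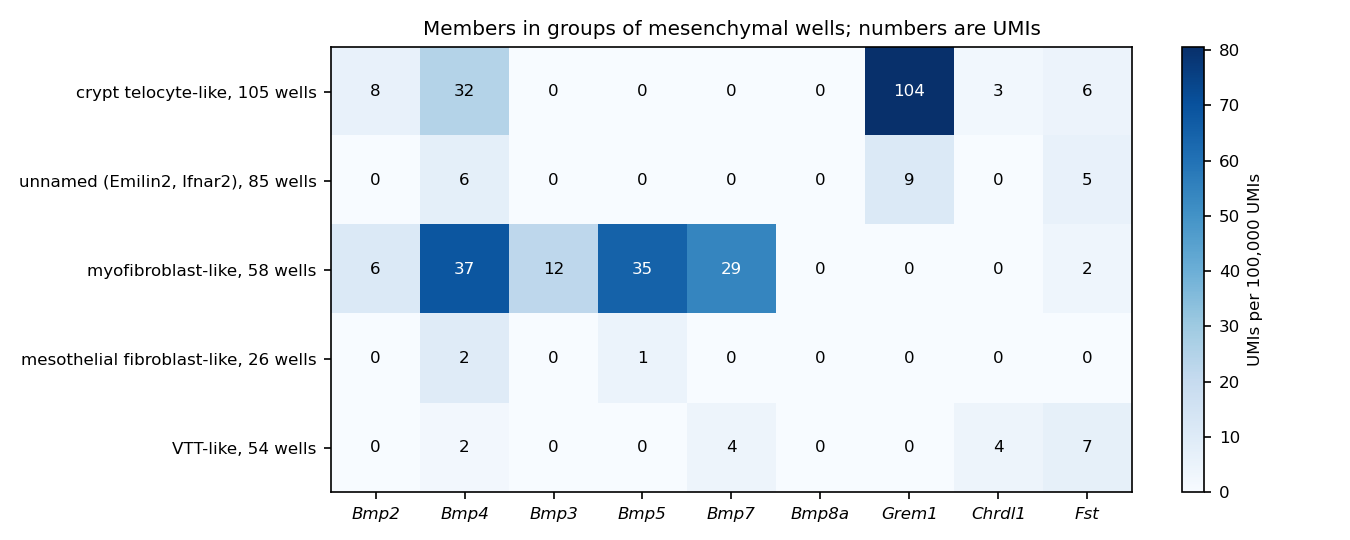
UMIs of 9 members in the 5 groups of mesenchymal wells, with color for UMIs per 100000 UMIs of the group and the number of UMIs written in each cell. *Grem1* stands in the crypt telocyte-like row with 104 UMIs, and *Bmp3*, *Bmp5* and *Bmp7* in the myofibroblast-like row with 12, 35 and 29.

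Within wells, *Bmp4* occurred with either side. It was found together with *Grem1* in 13 wells, with *Bmp5* in 11, with *Bmp3* in 9 and with *Bmp7* in 8. No well held *Grem1* together with *Bmp3*, *Bmp5* or *Bmp7*, among 47 *Grem1* wells and 11, 21 and 18 wells of the ligands. Mouse A gave 10 of these *Grem1* wells but 10, 20 and 15 of the ligand wells. The overlap to be expected within a mouse was not computed, so the absence is not read as exclusion. Among 2273 genes detected in at least 20 mesenchymal wells, the genes most like *Bmp5* across the 328 wells were *Ednrb* (Pearson r = 0.45), *Emid1* (0.43), *Pdlim1* (0.41), *Acta2* (0.38) and *Tagln* (0.37). Those most like *Grem1* were *Fbln1* (0.42), *Mgp* (0.42), *Fmo2* (0.38), *Chodl* (0.36) and *Sfrp1* (0.36), and those most like *Bmp4* were *Adamdec1* (0.30), *Fhl1* (0.25), *Fhl2* (0.24), *Tagln* (0.24) and *Cxcl12* (0.24). Wells share libraries, depth and animals, so these are descriptions, and the last 5 are weak.

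The epithelial ligands were also compared between epithelial wells grouped by marker lists. Each epithelial well was placed by which of 3 marker lists had most UMIs: 257 wells by the enterocyte tip list (*Ada*, *Nt5e*, *Slc28a2*, *Egfr*, *Klf4*, *Fos*), 1020 by the villus bottom list (such as *Reg1* and *Reg3g*) and 17 by the crypt cycling list. Another 65 wells, with a tie or no UMI of a list, were not placed. The lists differ in abundance, with medians of 7250 (bottom), 1289 (tip) and 703 CPM (crypt cycling) in mock epithelium. No scaling was made for this, so an abundant list leads more easily. The placement is not a measured position. *Bmp8a* lay mainly in tip-list wells, with 45 UMIs in 29 wells, a level of 10.4 (7.59 to 13.9) per 100000. In bottom-list wells it had 12 UMIs in 7 wells, a level of 0.457 (0.236 to 0.797), and in crypt-list wells 0. The share of wells with a *Bmp8a* UMI was 11.3% against 0.686%, and 3.87% against 0.217% with every well thinned to 400 UMIs. The tip-list wells were the shallower ones, with a median of 1314 against 2110.5 UMIs.

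The animals with most tip-list wells showed the same direction, with *Bmp8a* at 7.89 in tip-list and 0.691 in bottom-list wells of mouse A, and at 17.1 and 0.5257 in mouse G. Mice E and H had 3 and 1 *Bmp8a* UMIs in tip-list wells and none in bottom-list wells, whereas mouse B had 0 in 10 tip-list and 2 in 105 bottom-list wells. Of the 59 epithelial *Bmp8a* UMIs, 21 came from 64 wells of the CD45Singlets gate. Without that gate the tip-list level was 7.27 and the bottom-list level 0.461, and without the doublet gates they were 12.1 and 0.384. *Bmp2* had the same order with a smaller gap, 19 UMIs and a level of 4.39 (2.64 to 6.86) in tip-list wells against 41 UMIs and 1.56 (1.12 to 2.12) in bottom-list wells. Without the doublet gates these were 2.65, on 7 UMIs, and 1.21, on 22. In mouse A the levels were 6.77 and 2.37 and in mouse G 4.43 and 1.23. In mice B, F and H the order was the reverse, with 0 *Bmp2* UMIs in 10, 6 and 25 tip-list wells and levels of 1.32, 0.969 and 1.42 in bottom-list wells. *Bmp3* had all its 6 epithelial UMIs in bottom-list wells and *Bmp7* 2 of 4 in crypt-list wells. These groups come from the same wells and were compared without a test.

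**Figure D4:**
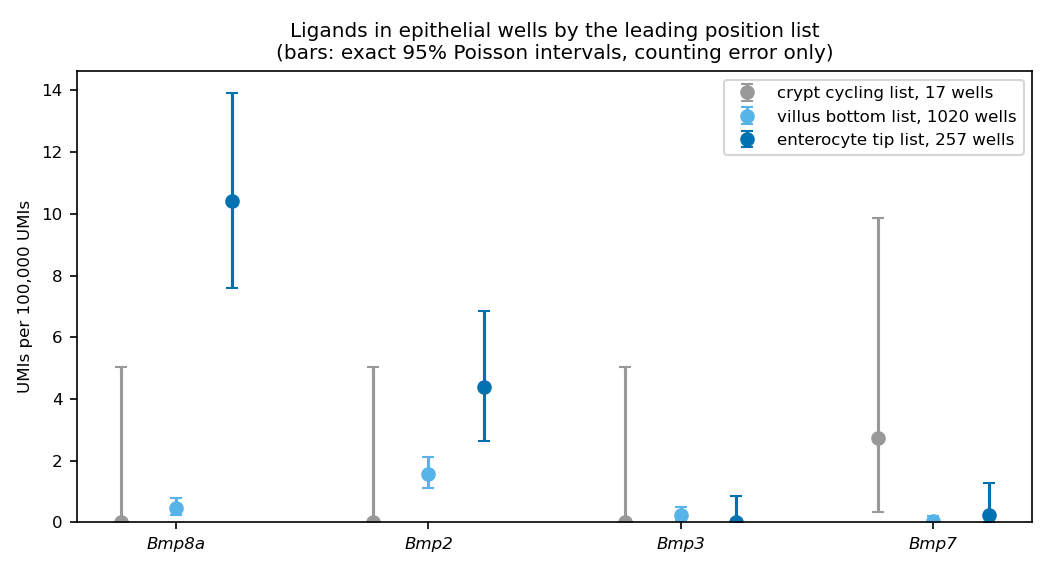
Levels of 4 ligands in epithelial wells placed by the crypt cycling, villus bottom or enterocyte tip list, in UMIs per 100000 UMIs, with exact 95% Poisson intervals for counting error. *Bmp8a* stands at 10.4 in tip-list wells and at 0.457 in bottom-list wells, and its intervals are apart.

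The last comparison asked how the epithelial ligands differed 48 h after *Lgr5* cells were ablated. *Bmp8a* was lower in DT than in mock epithelium in every sample, *Bmp3* likewise, and *Bmp2* overlapped between groups. No member passed the fit across genes at an adjusted p under 0.05. *Bmp8a* measured 31.8, 26.7, 34.7 and 16.9 CPM in mock samples 1 to 4 and 14.3, 4.83, 11.9 and 10.1 CPM in DT samples 1 to 4. The lowest mock sample lay above the highest DT sample, and the means were 27.5 ± 7.79 and 10.3 ± 4.03 CPM (SD, n = 4 each). The log2 difference was -1.47 ± 0.32 (SE, edgeR, unadjusted p = 0.000681, adjusted p = 0.0907). The exact permutation test gave p = 0.0286, the smallest that 4 against 4 allow.

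*Bmp3* measured 17.3, 18.7, 15.2 and 11.8 CPM in mock and 8.43, 3.87, 11.7 and 4.40 CPM in DT samples. The groups were apart by the narrow gap between 11.8 and 11.7 CPM. The means were 15.8 ± 2.98 and 7.10 ± 3.67 CPM (SD, n = 4 each), with a log2 difference of -1.08 ± 0.36 (SE, edgeR, adjusted p = 0.223) and an exact permutation p = 0.0286. *Bmp2* measured 21.4, 10.7, 18.5 and 10.2 CPM in mock and 18.5, 8.70, 7.43 and 7.05 CPM in DT samples, with a log2 difference of -0.77 ± 0.32 (SE, edgeR, adjusted p = 0.250) and an exact permutation p = 0.2. Of the DT samples, number 1 stood at the level of the mock samples. The difference of *Bmp3* was -0.80 without DT sample 2 and -1.69 without DT sample 3, and that of *Bmp2* -0.50 without mock sample 3. *Bmp3* and *Bmp2* exceeded the expression minimum in 4 of 4 mock samples and 1 of 4 DT samples, so they were tested through the mock group, and no count over the tested ligands is read. Of 8986 genes tested, 32 (0.356%) were called, 1551 (17.3%) had an unadjusted p under 0.05 and 134 (1.49%) had all 4 DT samples below all 4 mock samples. *Bmp8a* and *Bmp3* were among the 134.

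The epithelial samples came in 2 batches, numbers 1 and 2 in the first and 3 and 4 in the second. Within them the log2 difference of *Bmp8a* was -1.81 and -1.24, and that of *Bmp3* -1.71 and -0.69. *Bmp7* tracked the batch instead: it measured 0.691 and 0 CPM in mock samples 1 and 2 and 6.18 and 5.38 CPM in 3 and 4, against 2.53, 1.45, 4.78 and 3.96 CPM in the DT samples, and it did not reach the expression minimum. The stromal members were near absent, with 16 mock and 8 DT UMIs of *Bmp4*, 2 and 3 of *Bmp5*, 2 and 1 of *Grem1*, 1 and 0 of *Fst*, and none of *Chrdl1* or *Nog*. The 6 mesenchymal markers summed to a median of 8.56 CPM in mock and 7.25 CPM in DT samples.

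Summed levels of marker lists also differed between the groups, and in bulk RNA fewer cells of a type and less RNA per cell cannot be told apart. The summed enterocyte tip list had a median of 1289 CPM in mock (980 to 1347) and 476 CPM in DT samples (408 to 634), the Paneth cell list 5741 and 1404 CPM, the tuft cell list 87.6 and 11.2 CPM, the goblet cell list 7006 and 4755 CPM and the enteroendocrine list 694 and 432 CPM. The tip, Paneth and tuft cell sums were apart between the groups. The goblet cell sums overlapped, from 4783 to 9694 CPM in mock and from 3838 to 5484 CPM in DT samples. Enteroendocrine sums overlapped too, from 513 to 887 CPM in mock and from 345 to 598 CPM in DT samples. The villus bottom list had medians of 7250 and 8596 CPM and the crypt cycling list 703 and 838 CPM, higher in DT samples, with groups that overlapped. These sums were not tested. The tip list is the one whose wells held most *Bmp8a*, and its part in the lower *Bmp8a* level was not tested. Of the 55 pathway genes 21 were tested and 0 called, with 17 log2 differences below 0 and 4 above 0, while 49.5% of all genes tested were below 0. Of the 7 tested genes of the Smad list, 0 were called and 2 had an unadjusted p under 0.05, and the differences ran from -1.04 (*Smad7*) to -0.06 (*Smad1*) with a median of -0.47. *Smad7*, an inhibitor of the receptors, was at -1.04 ± 0.24 (SE, edgeR, unadjusted p = 0.00100, adjusted p = 0.111, and adjusted p = 0.0162 with DESeq2), and the target *Id1* at -0.51 ± 0.18 (edgeR, adjusted p = 0.232). The 7 tested receptors had a median of -0.08.

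**Figure D5:**
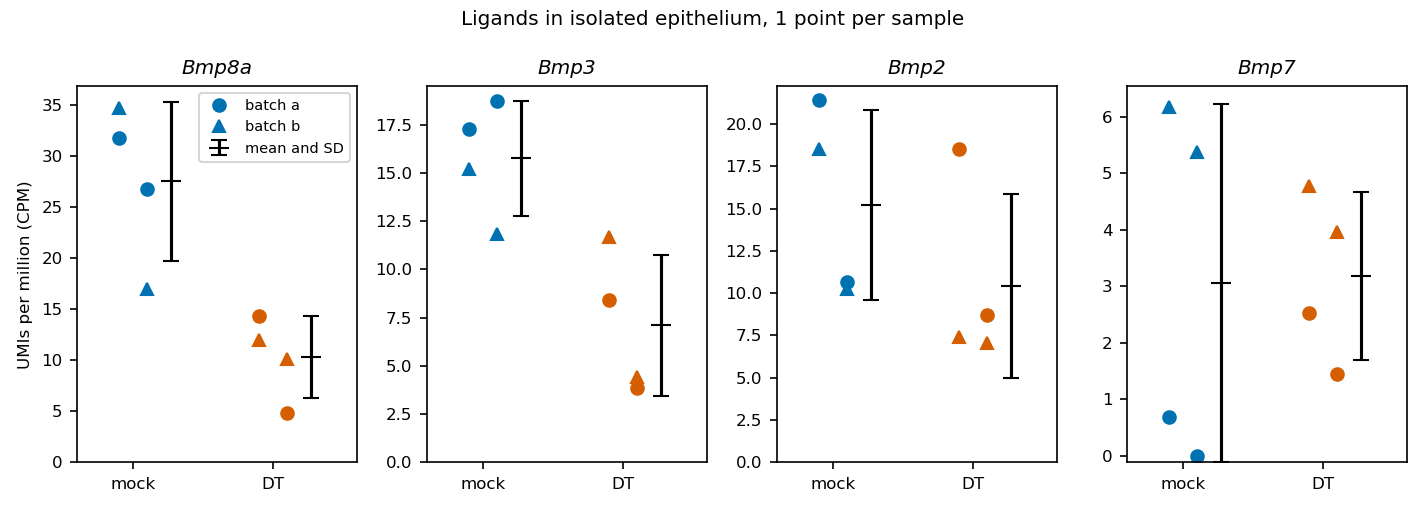
CPM of *Bmp8a*, *Bmp3*, *Bmp2* and *Bmp7* in isolated epithelium 48 h after mock injection or DT, with a point per sample (circles for the first batch, triangles for the second) and a bar for the mean and SD of 4 samples. The 4 DT samples of *Bmp8a* (4.83 to 14.3 CPM) and of *Bmp3* (3.87 to 11.7 CPM) lie below their mock samples.

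The *Bmp8a* values could be shared with *Bmp8b*, a near copy on the same chromosome. The *Bmp8a* transcripts share 177 stretches of 66 bases with *Bmp8b*, 7.56% and 9.56% of the stretches of its transcripts, and 0 of 435 in the last 500 bases, where the UMI methods read. *Bmp8b* had 14 UMIs in 10 epithelial wells and 0 in mesenchymal wells.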

How the data were processed

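LCM sections were sequenced with SMART-seq, sorted cells with MARS-seq and epithelium, detached with EDTA, with mcSCRB-seq. Per the labels and the study's methods, the authors mapped LCM reads to GRCm38 coding transcripts and deposited TPM, and deposited UMI counts per gene for wells and epithelial samples. The steps from there were as follows. LCM: the genes that make up 50% of mock epithelial UMIs, ribosomal and mitochondrial genes apart, were removed (378 rows), values were divided by the sum of genes under 1% of a sample (ppm), each mouse contributed the mean of its sections in a zone, and genes with a zone mean above 5 ppm were tested in limma 3.58.1 on log2(ppm + 1) with the mouse as a block (18 values). Wells: UMIs were summed per mouse and class with at least 5 wells (4 mesenchymal and 8 epithelial sums) and tested in edgeR 4.0.16 (TMM, quasi-likelihood) and, for members, in an exact permutation test over mice, also paired within the 4 mice with both classes (chosen after seeing the data). Mesenchymal wells were grouped with scanpy 1.11.5 (Leiden, resolution 0.5, 990 variable genes). Doublets were not called, and the wells of doublet gates were kept and also left out. Epithelium: genes above 1e-05 of the UMIs in at least 2 samples were tested in edgeR with a batch term. The batch comes from the study's supplementary table. Adjusted p-values are Benjamini-Hochberg over all genes tested. The main designs of the limma and edgeR fits were tested on simulated data, and the other steps were not.

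One plate of 352 wells matched no sample and was not used. Wells below 400 (8822) or above 8000 UMIs (75) were left out. LCM depth per section is unknown, and TPM carries no counting interval. The members, lists and tests were chosen with earlier results of these data known. All 10 members are named, and list genes are named beside the count of their list. Alternatives were other pseudocounts, filters, scalings and tools (DESeq2 1.42.0), each mouse or sample left out, and the replicate block. Different zones of an animal tended to deviate together (24 pairs, median r = 0.18, from -0.07 to 0.47, against a median of -0.05 between mice). For the classes of wells in 4 mice, r was -0.01 to 0.07, within the range of -0.11 to 0.14 between mice.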

Additional observations from a re-analysis of the deposited data

Results flagged for a closer look

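In groups of 4 to 10 values, 1 value stood far from the others, by Dixon's test at the 95% level, in 11 of 30 groups of a member and a villus zone, in 4 of 7 groups of a member and a class of wells with at least 20 UMIs, and in 1 of 8 groups of a member in epithelium. Chance flags about 1 in 20 groups where values follow a normal distribution. The levels were tested unlogged, are skewed and in part at 0, so the counts are not read as an excess over chance. *Nog* in the villus center, for example, was at 0 in 4 of 5 mice.

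In the LCM villus zones all 11 lone values were the highest of their zone and are given in ppm. *Bmp4* reached 361 at the tip in mouse 4, and *Bmp2* reached 84.2 at the tip in mouse 2. *Bmp7* stood out in all 3 villus zones, at 23.3 in the bottom and 34.8 at the tip in mouse 4 and at 49.5 in the center in mouse 5. *Bmp5* stood out in mouse 5, at 5.58 in the bottom and 17.3 at the tip, and *Bmp3* at 4.30 in the bottom in the same mouse. *Fst* in the center was 63.0 and *Nog* in the center 5.73, both in mouse 3, and *Grem1* in the center was 9.02 in mouse 1. The center of mouse 1 includes the section high in muscle markers, and its part in the *Grem1* value was not tested.

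In wells, *Bmp5* at 30.7 and *Bmp7* at 25.1 UMIs per 100000 in mesenchymal wells both came from mouse A, which held most myofibroblast-like wells. *Bmp8a* at 4.09 in epithelial wells came from mouse G. *Bmp2* at 9.73 in epithelial wells came from mouse D, where it rests on 1 UMI. In DT epithelium, *Bmp2* was 18.5 CPM in sample 1 against 7.05 to 8.70 CPM in the other 3.

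Wells that were neither mesenchymal nor epithelial entered no comparison. They held 19 UMIs of *Bmp2* and 18 of *Bmp8a*, above the 3 counts that 0 allows.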

How the results depend on the processing

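Of 267 values of members in the LCM contrasts under alternatives, 242 kept their direction and side of the threshold and 25 reversed, none of them called. Without the replicate block, that is without the mouse in the fit, *Bmp7* tip minus crypt was 0.25, *Bmp7* bottom minus crypt 0.40 and *Nog* tip minus crypt -0.012. *Bmp7* tip minus bottom was 0.092 with a pseudocount of 5 ppm, 0.017 with the enterocyte genes kept and 0.091 on TPM as deposited, and *Bmp8a* tip minus bottom was -0.079 with log2 values averaged over sections. Leaving out each mouse gave, for tip minus crypt, *Bmp4* -0.78 to 0.88, *Bmp7* -1.19 to 0.26, *Bmp8a* -1.40 to 0.96, *Nog* -0.20 to 0.45 and *Fst* -1.57 to 0.57; for bottom minus crypt, *Bmp7* -1.05 to 0.070 and *Bmp8a* -1.26 to 0.16; and for tip minus bottom, *Bmp2* -0.087 to 1.28, *Bmp4* -1.22 to 0.27, *Bmp7* -0.50 to 0.19 and *Bmp8a* -0.81 to 0.80. The cause was not tested. The count of called genes for tip against crypt was 1 without a filter, and for tip against bottom 0 to 4 with each mouse left out (4 without mouse 4).

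For mesenchymal against epithelial wells, 1821 genes were called in all, 4887 without a filter (more genes were tested), 2793 with at least 20 wells per sum, and 1158 to 2217 with each mouse left out. With the replicate block (mouse, 2490 genes tested) 1259 were called, 419 higher and 840 lower. *Chrdl1* had a difference of 0 to 0.873 with each mouse left out. Without a minimum of UMIs, 635 genes were called in DT epithelium, *Bmp8a* (adjusted p = 5.39e-06) and *Bmp3* (adjusted p = 0.0154) among them. The 32 calls became 1 without the batch term, 3 with the replicate block (*Bmp8a* -1.44, edgeR adjusted p = 0.131), 143 with DESeq2, 3 to 41 with each sample left out, 0 within the first batch and 5 within the second, where fewer samples enter. *Bmp8a* stayed between -1.81 and -1.18 throughout. Depth limits the sparse members most: *Chrdl1* rests on 7 UMIs and *Bmp3* on 12 in mesenchymal wells.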

Other observations

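Other ligands of the superfamily were sparse in the wells beside *Gdf10*. *Gdf6* and *Inhba* had 8 UMIs each in mesenchymal wells and none in epithelial wells, and *Bmp6* and *Inhbb* had 1 each. Among receptors and co-receptors, *Eng* had 50 UMIs, *Rgma* 41 and *Acvrl1* 27 in mesenchymal wells against 2, 0 and 0 in epithelial wells. *Bmpr1a* and *Bmpr2*, the core type I and type II BMP receptors, were found in both classes, at 5.64 and 9.22 UMIs per 100000 in mesenchymal wells and 3.49 and 2.151 in epithelial wells. *Smad1* was at 3.84 and 4.58. None of these was tested in the fit across genes, since their counts missed its filter.

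Across the 18 LCM values per mouse and zone, the genes most like *Bmp4* among 13535 were *Diaph2* (Pearson r = 0.86), *Ccpg1* (0.81) and *Col18a1* (0.81). *Bmp2* was most like *Ablim1* (0.83), *Bmp7* most like *Olfr1033* (0.89), *Grem1* most like *Ttc33* (0.82) and *Fst* most like *Cd69* (0.80). Values of a mouse share their animal and several rest on 1 high section, so these are descriptions.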
